A study of Mus musculus with 12 samples.

Results

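A set of 10 Id and feedback genes of bone morphogenetic protein (BMP) and transforming growth factor beta (TGF-beta) signalling is described here in cultured mouse astrocytes. They are the 4 inhibitor-of-DNA-binding genes Id1, Id2, Id3 and Id4, the inhibitory Smads Smad6 and Smad7, the activin subunit gene Inhba, the stress-response gene Gadd45b, the Smad co-repressor gene Skil and the decoy receptor gene Bambi. The 10 genes were picked by name and matched by symbol to the Ensembl gene rows of the deposited count table, which held 55573 genes. No measured value entered the matching, but the list was drawn up with earlier results of these data known. Of the 55573 genes, 16761 had enough counts to be tested, and all 10 members were among them.

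Polyadenylated RNA of 12 libraries was sequenced, 3 in each of 4 groups. The cells of every group were cortical cultures enriched for astrocytes, prepared from C57BL6/J pups at postnatal day 0 to 2 and grown in medium with horse serum. All had been exposed to a lentivirus 5 days before the end of the experiment. ACREB VIP cultures carried the virus for ACREB, a protein that blocks CREB in a dominant-negative way, and were bathed in 0.5 µM vasoactive intestinal peptide (VIP) for 30 min before 90 min of recovery. ACREB PBS cultures carried that virus and were bathed in PBS on the same schedule. Control VIP and control PBS cultures carried pCIG3 (pCMV-IRES-GFP), the control virus, and had VIP or PBS. VIP is a neuropeptide whose receptors raise cyclic AMP, and CREB is a transcription factor activated by that signal. The design compares VIP with PBS in each virus, ACREB with control virus in each treatment, and the VIP response between viruses. The labels number libraries 1 to 3 without stating separate cultures or animals. The p-values thus measure only the spread among these libraries, and that spread may be technical.

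BMP and TGF-beta ligands bind paired serine/threonine kinase receptors, which phosphorylate Smad proteins that enter the nucleus with Smad4. Id proteins are direct BMP targets that lack a DNA-binding domain and hold basic helix-loop-helix (bHLH) factors, such as those that drive neuronal and oligodendrocyte fates, in inactive dimers. Smad6 and Smad7 are induced by the same signals and block the receptors and Smads in turn, and Bambi and the Skil product SnoN damp the pathway at the receptor and in the nucleus. In the developing cortex BMP signalling is known to favour astrocyte over neuronal and oligodendrocyte fates.

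Libraries held 16571398 to 20529238 counts. Astrocyte markers summed to between 5482 and 6626 CPM (counts brought to a common library size after rescaling by TMM, the trimmed mean of M-values) in every library, and none of the 10 markers was at 0. Markers of other cells were also counted, from 22.1 to 57.7 CPM for endothelium up to 3315 to 5788 CPM for fibroblasts and mural cells. The fibroblast and mural sum was mostly Acta2 and Tagln, at means of 2149 and 1820 CPM, with Dcn at 1.53 and Lum at 0.545. Kdr and Flt1, at 25.8 and 10.9 CPM, made up most of the endothelial sum. Only these 2 of the 9 endothelial markers had enough counts to be tested, and Cldn5 had 0 counts. In bulk cultures fewer cells of a type and less RNA per cell cannot be told apart. Control PBS library 2 stood apart from the other libraries. Its position on the first principal component, which held 38.1% of the variance, was 81.2, ACREB PBS library 2 followed at 34.6, and the other 10 lay at or under 7.02. In the same libraries GC content and length of the genes accounted for 40.4% and 19.2% of the variance of the gene levels around their medians, against 1.16 to 10.5% elsewhere. As a check of the treatment, Nr4a2, an immediate-early nuclear receptor gene, rose with VIP by 3.53 on the log2 scale with control virus (edgeR quasi-likelihood, adjusted p = 1.04e-05) and by 2.32 with ACREB (adjusted p = 0.00104).

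Upstream sequence is shown for 4 members, Smad6 and Gadd45b because they had the lowest fold changes after VIP, and Id3 and Id4 because they hold a motif of CREB, the factor that ACREB blocks. The windows cover 250 bases before the RefSeq start (GRCm38.p6), and 6 members had one that was read, Id2, Id3, Id4, Smad6, Inhba and Gadd45b. Smad6 and Gadd45b are shown from 150 to 21 bases before the start, at chr9:64022080-64022209 on the minus strand and chr10:80929941-80930070 on the plus strand. Capitals mark GC boxes (GGGCGG or CCGCCC) in Smad6, and CCAAT boxes (CCAAT) and a TATA box (TATAAA) in Gadd45b.
Smad6: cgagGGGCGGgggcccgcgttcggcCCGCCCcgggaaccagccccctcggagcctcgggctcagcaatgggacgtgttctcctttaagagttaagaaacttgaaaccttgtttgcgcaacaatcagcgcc
Gadd45b: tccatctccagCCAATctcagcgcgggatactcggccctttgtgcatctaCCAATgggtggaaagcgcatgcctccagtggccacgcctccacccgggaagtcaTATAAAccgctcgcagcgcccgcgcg
Id3 and Id4 are shown where they hold the short motif bound by CREB (TGACG or its complement CGTCA, in capitals), at chr4:136143642-136143671 and chr13:48260876-48260905, both on the plus strand. The RefSeq start of Id3 lies inside the gene as annotated in GENCODE, so the Id3 stretch overlaps that annotation. The window of Id2, chr12:25096093-25096342 on the minus strand, likewise lies wholly inside the annotated gene.
Id3: ctgtcctcggCGTCAgaccagcctaaggaa
Id4: attggcccgagCGTCAttccccgaggtggc

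The full palindromic CREB motif, TGACGTCA, was in none of the 6 windows, and in 1.55% of all 32817 windows of the same length. Counted from the start, the short form began at -170 in Id3 and at -229 in Id4, and 17.7% of all windows held it on either strand. Smad6 had 4 GC boxes in its window, a motif present in 32.7% of windows, and no match to the Smad motif GTCTG or CAGAC, which 42.2% of windows held. Id3 had 2 matches to that Smad motif, of which 1 overlapped the short CREB motif. The GC-rich Smad motif GGCGCC, found in 9.59% of windows, was in Id2 at -231 and in Id4 at -148. Gadd45b had 2 CCAAT boxes and 1 TATA box, motifs that 33.8% and 12.4% of windows held. These matches describe letters in a window and say nothing of binding.

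Per length, the Id genes were among the most abundant transcripts of the cultures. Levels between genes are compared as RPKM, counts per kilobase of exon, scaled to library size as CPM are. Averaged over the 12 libraries, Id3 (ENSMUSG00000007872, chr4:136143497-136145755) stood at 269 RPKM, Id1 (ENSMUSG00000042745, chr2:152736251-152737410) at 169, Id4 (ENSMUSG00000021379, chr13:48261228-48266026) at 116 and Id2 (ENSMUSG00000020644, chr12:25093799-25097140) at 111. Id2, the lowest of the 4, exceeded 97.9% of the genes tested. The feedback genes were far lower. Gadd45b (ENSMUSG00000015312, chr10:80930073-80932204) averaged 19.0 RPKM, Smad6 (ENSMUSG00000036867, chr9:63953076-64022059) 8.82, Skil (ENSMUSG00000027660, chr3:31095058-31122577) 8.61, Bambi (ENSMUSG00000024232, chr18:3507923-3516404) 7.29 and Smad7 (ENSMUSG00000025880, chr18:75367529-75395935) 5.89. Inhba (ENSMUSG00000041324, chr13:16011851-16031621), which encodes the beta A subunit of activin A, was the lowest at 0.671 RPKM, from 25 to 157 counts per library. Neighbours in this order kept it in all 12 libraries, except that Id4 exceeded Id2 in 9, Smad6 exceeded Skil in 4 and Skil exceeded Bambi in 10 of 12. Id4 and Id2, Smad6 and Skil, and Skil and Bambi thus did not separate beyond their spread. Id4 overlaps the antisense genes A330033J07Rik and Gm49291, and the strand setting of the counter is not given in the sources used here. Those 2 genes had at most 37 counts in a library, against at least 6933 for Id4.

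**Figure D1:**
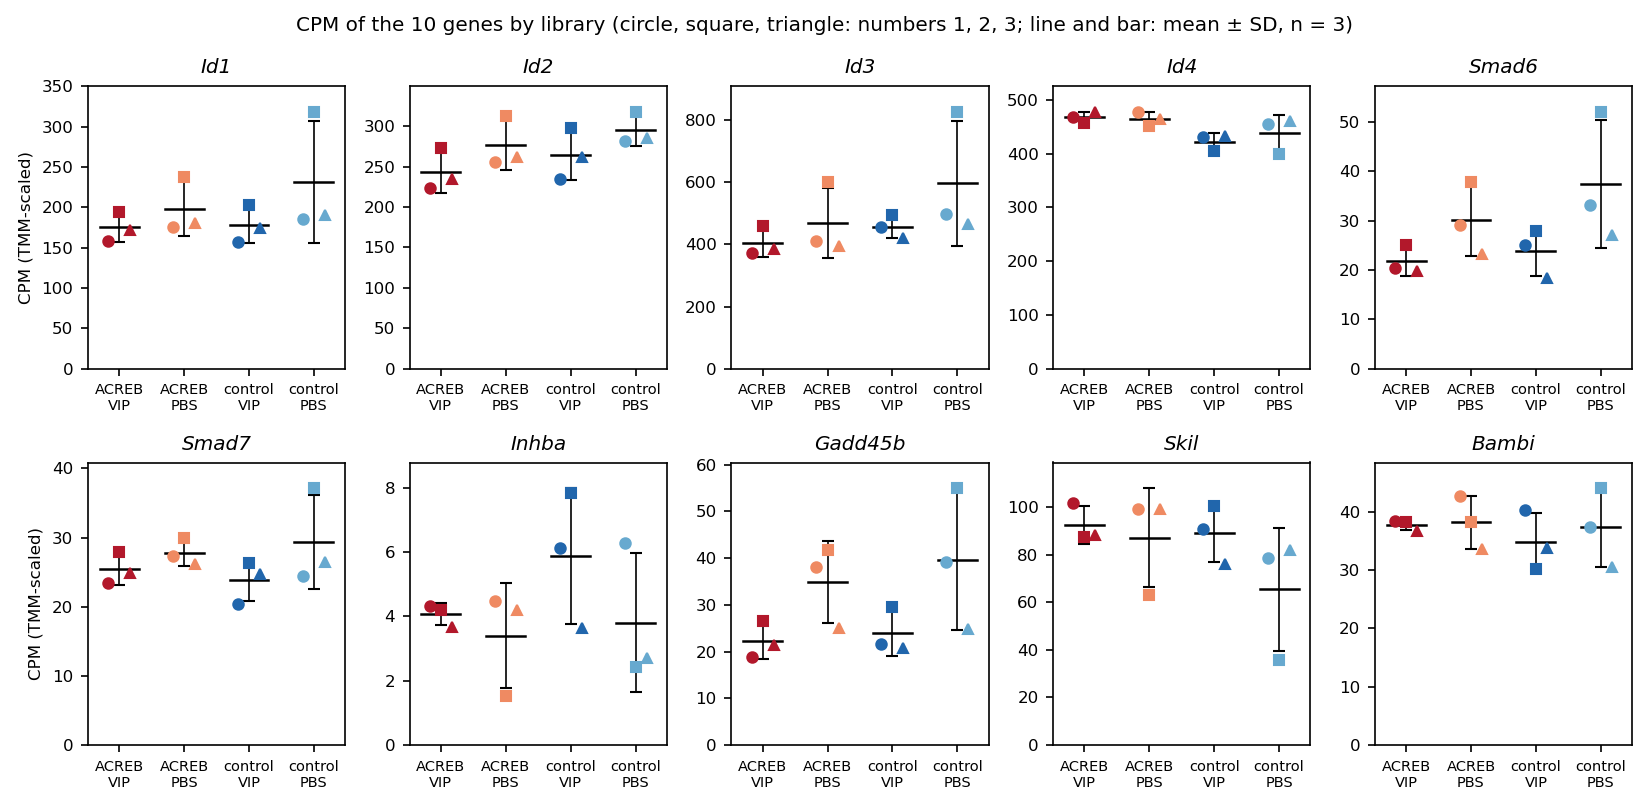
CPM of each of the 10 genes (vertical axes, linear, from 0) in the 12 libraries, by group (horizontal axes); symbols are libraries 1 to 3, lines and bars the mean ± SD of 3. Control PBS library 2 is the highest of the 12 libraries for Id1, Id2, Id3, Smad6, Smad7, Gadd45b and Bambi, and the lowest for Id4, at 399 CPM, and Skil, at 35.5 CPM.

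After VIP, Smad6 and Gadd45b had the lowest fold changes of the 10 genes. Both were lower with VIP than with PBS in all 6 pairs of same-numbered libraries, on average to 0.677 of the PBS level for Smad6 and to 0.622 for Gadd45b. In a fit that took the library number as a block, so that libraries were compared within a number, both fell with VIP over the mean of the viruses, and Smad6 also fell within the control virus. In the fit without the block no member passed. Id1, Id2, Id3 and Smad7 were lower with VIP in all 6 pairs too, by smaller amounts that did not pass in either fit.

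Inhba, the activin subunit, had 4.32, 4.20 and 3.67 CPM in ACREB VIP cultures, against 4.47, 1.51 and 4.22 CPM in ACREB PBS cultures. With control virus it had 6.14, 7.85 and 3.64 CPM with VIP, against 6.29, 2.41 and 2.71 CPM with PBS. The groups overlapped, and the spread among 3 libraries was wide. The log2 fold change of VIP over PBS was 0.62 ± 0.43 (SE) with control virus and 0.25 ± 0.44 with ACREB, and neither passed (edgeR quasi-likelihood, adjusted p = 0.782 and 1.00). Without control PBS library 2 the value with control virus was 0.38. Within pairs it was higher with VIP in 3 of 6, and the largest differences came from pairs numbered 2.

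Bambi encodes a pseudoreceptor without a kinase domain, and its counts may be shared with the processed pseudogene Bambi-ps1. It averaged 37.8 ± 0.939 CPM in ACREB VIP and 38.2 ± 4.52 CPM in ACREB PBS cultures, and 34.7 ± 5.14 CPM in control VIP and 37.3 ± 6.73 CPM in control PBS cultures (SD, n = 3 each). The 4 ranges overlapped. The 95% interval of its log2 fold change, VIP over PBS, ran from -0.44 to 0.23 with control virus and from -0.35 to 0.32 with ACREB.

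Smad6, the inhibitory Smad that acts mainly on BMP receptors and their Smads, had 20.4, 25.0 and 19.7 CPM in ACREB VIP cultures, against 29.2, 37.9 and 23.3 CPM in ACREB PBS cultures. With control virus it had 25.0, 27.9 and 18.4 CPM with VIP, against 33.1, 52.1 and 27.1 CPM with PBS. Library 3 was the lowest and library 2 the highest of every group, so the groups overlapped although each VIP library lay below its same-numbered PBS library. The differences within pairs, on the log2(CPM + 2) scale, were -0.47, -0.56 and -0.22 with ACREB and -0.38, -0.85 and -0.52 with control virus.

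Without the block, the log2 fold change of Smad6 over the mean of both viruses was -0.56 ± 0.18 (SE; edgeR quasi-likelihood, adjusted p = 0.325). With the block it was -0.54 ± 0.087 (edgeR quasi-likelihood, adjusted p = 0.00818). That call held with any 1 of the 12 libraries left out of the blocked fit, with adjusted p of 0.00264 to 0.0462. Within the control virus the blocked value was -0.63 ± 0.12 (edgeR quasi-likelihood, adjusted p = 0.0282, against 0.618 without the block). It passed in 4 of the 12 blocked fits with 1 library left out, those without control PBS 2 or 3 or ACREB VIP 2 or 3, and reached 0.120 without control VIP 2. Within ACREB it was -0.45 and did not pass (edgeR quasi-likelihood with the block, adjusted p = 0.585). Without control PBS library 2, the unblocked value within the control virus was -0.34, against -0.66 with it.

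Smad7, which inhibits both branches of the pathway, had 23.4, 27.9 and 24.9 CPM in ACREB VIP cultures, against 27.3, 29.9 and 26.2 CPM in ACREB PBS cultures. Under control virus the values were 20.5, 26.4 and 24.8 CPM with VIP, against 24.5, 37.1 and 26.5 CPM with PBS. Each VIP library lay below its PBS partner while the groups overlapped. The log2 fold change over both viruses was -0.22 ± 0.12 (SE) and did not pass without or with the block (edgeR quasi-likelihood, adjusted p = 0.846 and 0.289). It was -0.12 without control PBS library 2.

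Skil, whose product SnoN binds Smads and recruits repressors, had 101, 87.4 and 88.3 CPM in ACREB VIP cultures, against 99.0, 63.1 and 99.2 CPM in ACREB PBS cultures. With control virus it had 90.7, 100.2 and 75.9 CPM with VIP, against 78.7, 35.5 and 82.0 CPM with PBS. The lowest PBS value in each virus was library 2, the one with the strong GC trend. Its log2 fold change with control virus was 0.44 ± 0.27 (SE; edgeR quasi-likelihood, adjusted p = 0.782), and 0.15 without control PBS library 2.

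Among the Id genes, Id1 had 158, 195 and 172 CPM in ACREB VIP cultures, against 176, 238 and 180.5 CPM in ACREB PBS cultures. With control virus Id1 had 157, 202 and 174 CPM with VIP, against 185, 318 and 191 CPM with PBS. Id3 had 372, 460.0 and 387 CPM in ACREB VIP cultures, against 411, 601 and 396 CPM in ACREB PBS cultures. Both genes were lower with VIP in each pair, with the widest gap in the pairs numbered 2, and their groups overlapped. Id3 with control virus had 456, 495 and 420.5 CPM with VIP, against 499, 828 and 465 CPM with PBS. The log2 fold change with control virus was -0.38 ± 0.20 for Id1 and -0.39 ± 0.22 for Id3 (SE), and it was -0.081 and -0.077 without control PBS library 2.

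Id2 had 223, 273 and 234 CPM in ACREB VIP cultures, against 256, 313 and 263 CPM in ACREB PBS cultures. Under control virus Id2 had 235, 297 and 262 CPM with VIP, against 282, 318 and 285 CPM with PBS. Its differences within pairs were more even than those of Id1 and Id3. With control virus its log2 fold change, -0.16 ± 0.13 (SE), was smaller than theirs. With ACREB it was -0.19 ± 0.13 (SE), against -0.18 for Id1 and -0.21 for Id3. Id4 did not follow the other Id genes. It averaged 468 ± 9.79 CPM in ACREB VIP and 464 ± 13.7 CPM in ACREB PBS cultures, and 423 ± 15.7 CPM in control VIP and 438 ± 34.1 CPM in control PBS cultures (SD, n = 3 each). The 95% interval of its log2 fold change over both viruses ran from -0.16 to 0.12, the narrowest of the 10 genes.

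Gadd45b, which is induced by TGF-beta and by stress and can activate the p38 kinase pathway, had 18.8, 26.6 and 21.4 CPM in ACREB VIP cultures, against 38.0, 41.7 and 25.0 CPM in ACREB PBS cultures. In control-virus cultures it had 21.6, 29.6 and 20.9 CPM with VIP, against 39.2, 55.0 and 24.9 CPM with PBS. In both viruses the VIP library numbered 2 was above the PBS library numbered 3, so the groups overlapped, but pairs 1 and 2 differed widely. The differences within pairs were -0.94, -0.61 and -0.21 on the log2(CPM + 2) scale with ACREB, and -0.80, -0.85 and -0.23 with control virus.

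Over both viruses the log2 fold change of Gadd45b was -0.69 ± 0.20 (SE; edgeR quasi-likelihood, adjusted p = 0.229), and with the block it was -0.65 ± 0.12 (adjusted p = 0.0140). The blocked call was kept in 8 of 12 fits with 1 library left out. It was lost without control VIP 1 (adjusted p = 0.0662), ACREB PBS 1 (0.0613), ACREB VIP 1 (0.0677) or ACREB VIP 2 (0.0574), by edgeR quasi-likelihood throughout. Within the control virus the blocked value was -0.68 and missed the threshold (edgeR quasi-likelihood, adjusted p = 0.0685), and it passed at 0.0251 only without control PBS library 3. Without control PBS library 2 the unblocked value within the control virus was -0.42, against -0.72 with it. DESeq2 without a block gave an adjusted p of 0.0551 over both viruses.

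**Figure D2:**
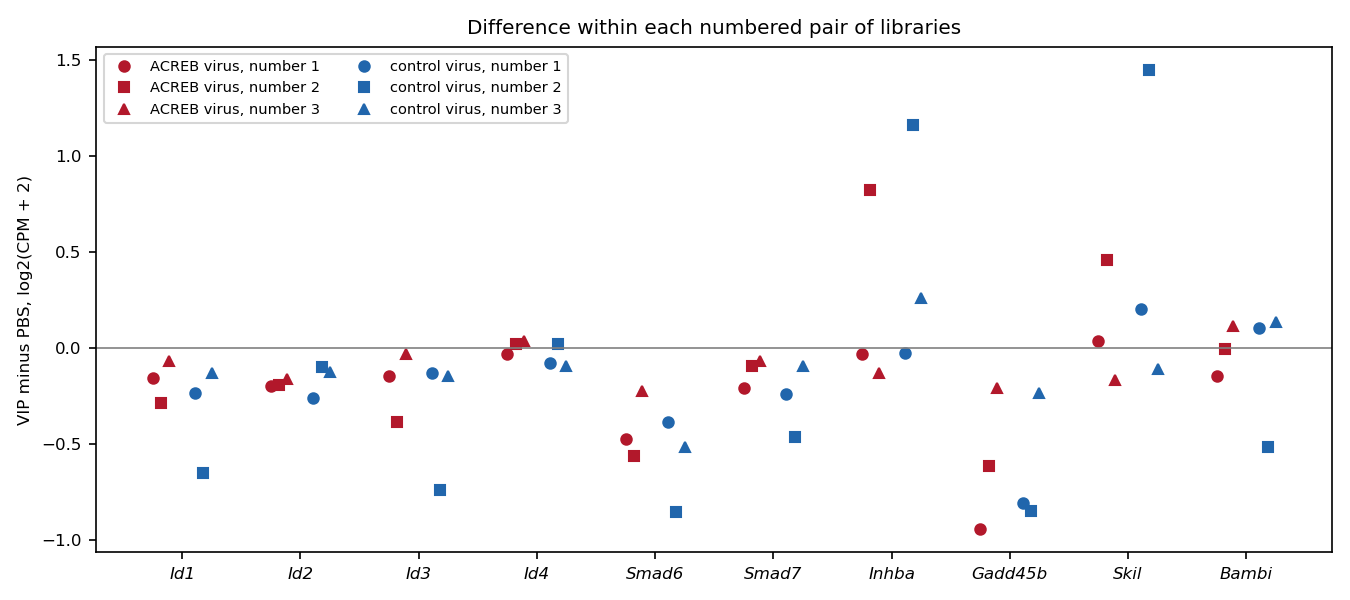
Difference between the VIP and the PBS library of the same number on the log2(CPM + 2) scale (vertical axis) for each gene (horizontal axis); red symbols are ACREB and blue symbols control virus. All 6 points lie below 0 for Id1, Id2, Id3, Smad6, Smad7 and Gadd45b, and the pairs numbered 2 with control virus hold the largest differences of Id1, Id3, Smad6, Smad7, Inhba, Skil and Bambi.

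Counted over the list, 0 of 10 members passed the edgeR quasi-likelihood test of VIP over PBS with control virus (0.489% of all genes tested passed), 0 of 10 with ACREB (0.0119%) and 0 of 10 over both viruses (0.728%). At an unadjusted p under 0.05 there were 2, 1 and 2 members, against 1076, 322 and 1118 of all 16761 genes tested. DESeq2 likewise called 0 in each. With the block, 1 of 10 passed with control virus (1.63% of all genes), 0 with ACREB (0.0776%) and 2 over both viruses (2.25%), all of them lower. There were 6 members lower with VIP in 6 of 6 pairs, as were 4.71% of all genes tested. The median log2 fold change of the 10 was -0.23 with control virus, -0.16 with ACREB and -0.19 over both, and that of all genes was -0.023, 0.0020 and -0.014. Members differ in GC content and share libraries, so these counts are not of independent genes.

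Summed markers of oligodendrocyte-lineage and ependymal cells were lower with VIP under control virus, but a few genes carried much of each sum. Olig1 and Olig2 averaged 621 and 170 CPM over the libraries, and Foxj1, of the ependymal list, 347 CPM. Oligodendrocyte-lineage markers summed to 1155 to 1368 CPM in ACREB VIP and 1295 to 1411 CPM in ACREB PBS cultures, and to 1210 to 1311 CPM in control VIP and 1357 to 1860 CPM in control PBS cultures. Ependymal markers summed to 373 to 426 CPM in ACREB VIP and 386 to 480 CPM in ACREB PBS cultures, and to 326 to 429 CPM in control VIP and 447 to 468 CPM in control PBS cultures. In both lists the control VIP range lay below the control PBS range, while the ACREB ranges overlapped. None of the 10 oligodendrocyte-lineage or 7 ependymal markers was at 0 in all libraries. Of the oligodendrocyte-lineage markers, 1 of 10, Olig2, passed in the blocked fit of VIP over PBS across both viruses, and of the ependymal markers none. The astrocyte, neuron and fibroblast lists, with 10, 9 and 10 genes tested, each held 1 gene that passed there. These were Fgfr3 at -0.33, Gad1 at 1.00 and Pdgfrb at -0.41. Their part in the values of Smad6 and Gadd45b was not tested.

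With ACREB in place of control virus no member passed in either fit, and the most even differences were those of 3 Id genes. Id4 was higher with ACREB in 6 of 6 pairs, as were 8.44% of all genes tested. Id2 and Id3 were lower with ACREB in 6 of 6, as were 7.76% of all genes. Id4 had 469, 457 and 477 CPM in ACREB VIP cultures, against 431, 404 and 432 CPM in control VIP cultures. These groups did not overlap, but the difference did not pass (edgeR quasi-likelihood, unadjusted p = 0.138). How many of all genes tested separate in this way was not counted. With PBS, Id4 had 478, 451 and 464 CPM with ACREB, against 454, 399 and 460.3 CPM with control virus, and those groups overlapped. The log2 fold change of Id4 over both treatments was 0.12 ± 0.065 (SE; edgeR quasi-likelihood, adjusted p = 0.653). With PBS alone it was 0.085, and -0.068 with GC and length offsets, so its direction there depended on that correction. Id3 differed by -0.26 ± 0.15 and Id2 by -0.11 ± 0.089 (adjusted p = 0.683 and 0.824, edgeR quasi-likelihood). Without control PBS library 2, Id3 was at -0.10 over both treatments and at -0.035 with PBS, against -0.35 with that library.

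The other members had wide intervals between viruses. Smad6 differed by -0.31 ± 0.25 with PBS and -0.13 ± 0.25 with VIP on the log2 scale, ACREB over control (SE). Gadd45b differed by -0.18 ± 0.27 and -0.11 ± 0.28, Skil by 0.41 ± 0.27 and 0.055 ± 0.27, and Inhba by -0.16 ± 0.44 and -0.53 ± 0.43, in the same order of treatments. Without control PBS library 2 the PBS value was 0.0032 for Smad6, 0.13 for Gadd45b, 0.12 for Skil and -0.39 for Inhba, so those of Smad6 and Gadd45b changed sign. The comparisons of VIP with PBS under control virus and of ACREB with control virus under PBS share the 3 control PBS libraries.

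By edgeR quasi-likelihood, 0 of 10 members passed with PBS (0.0358% of all genes tested), 0 with VIP (0.0537%) and 0 over both treatments (0.674%). An unadjusted p under 0.05 was reached by 0 members in each, against 889, 954 and 1587 of all 16761 genes tested. DESeq2 also called 0. With the block the counts were again 0 of 10 in each, against 0.221%, 0.364% and 3.45% of all genes. The median log2 fold change of the 10 was -0.13 with PBS, -0.067 with VIP and -0.12 over both treatments, and that of all genes 0.0075, 0.0020 and 0.0040. Microglial markers moved with the virus in the blocked fit, where 6 of 10 rose with ACREB over both treatments. They summed to 1060 to 2108 CPM in ACREB VIP and 824 to 1727 CPM in control VIP cultures, and to 1099 to 2021 CPM in ACREB PBS and 855 to 1620 CPM in control PBS cultures. Other lists also held calls in that fit. Of the ependymal markers tested, 2 of 6, Rsph1 and Ccdc153, rose, as did 1 of 2 endothelial markers, Flt1. Of the neuronal markers 2 of 9 passed, Tubb3 at -0.64 and Stmn2 at 0.35. Among the oligodendrocyte-lineage markers 1 of 10, Mag, fell, and 0 of 10 astrocyte markers passed. Fibroblast and mural markers are given below. The part of these cells in the values of the Id genes was not tested.

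**Figure D3:**
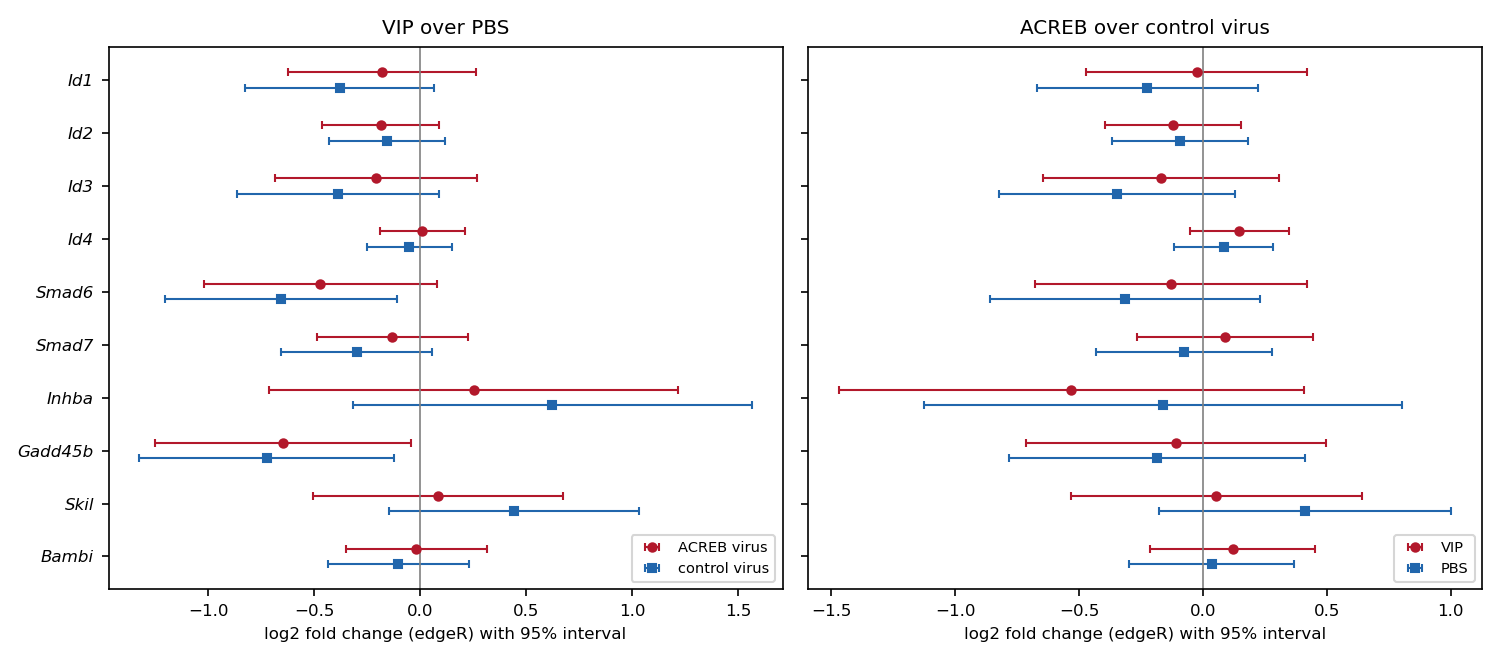
Log2 fold changes of the 10 genes with 95% intervals from edgeR without the block (horizontal axes); left, VIP over PBS in each virus; right, ACREB over control virus in each treatment. The intervals of Smad6 with control virus and of Gadd45b with both viruses lie below 0 before adjustment over all genes, and every interval on the right includes 0.

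Whether ACREB altered the VIP response was tested as an interaction, the VIP response with ACREB minus that with control virus. By edgeR quasi-likelihood 0 of 10 members passed, as did 0% of all genes tested, without and with the block. Below an unadjusted p of 0.05 lay 0 members and 201 genes without the block and 461 genes with it. For Smad6 the difference was 0.18 on the log2 scale, with a 95% interval of -0.59 to 0.96, and for Gadd45b it was 0.075, with an interval of -0.78 to 0.92. These intervals include both a full loss of the VIP difference under ACREB and none at all. The difference was 0.20 for Id1, -0.029 for Id2, 0.18 for Id3, 0.061 for Id4, 0.17 for Smad7, -0.37 for Inhba, -0.36 for Skil and 0.085 for Bambi. With control PBS library 2 left out of the fit without the block, the values of Id1, Id3, Smad6 and Gadd45b were -0.10, -0.13, -0.13 and -0.24, on the other side of 0. With the block and without that library they were 0.016, -0.0035, 0.037 and -0.076.

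In the library that stood apart the GC-rich members were high and most of the AT-rich ones low. GC content was taken from the longest transcript of each gene. It was 54.7%, 55.6%, 60.8%, 56.9% and 56.9% for Id1, Id3, Smad6, Smad7 and Gadd45b. For Skil, Inhba, Id4, Bambi and Id2 it was 41.0%, 41.4%, 42.6%, 44.0% and 45.2%. In control PBS library 2, Smad6 was 1.00 above its median over the 12 libraries on the log2 scale, Gadd45b 1.09, Id1 0.80 and Id3 0.85. Skil was at -1.30 and Inhba at -0.79. After the GC and length trend of each library was removed, these became 0.62, 0.79, 0.56 and 0.56, and -0.32 and 0.037. Bambi and Id2, at 0.22 and 0.25 before, were at 0.79 and 0.67 after. Id4 went from -0.19 to 0.45. Smad7 went from 0.50 to 0.17. Thus Id1, Id3, Smad6 and Gadd45b still lay between 0.56 and 0.79 above their median there, and Smad7 only 0.17. Removal of the trend raised Id2, Id4 and Bambi.

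With that trend as an offset in the blocked fit, the counts of members called were higher, and so were those of all genes. For VIP over PBS, 5 of 10 fell over both viruses, Id1, Id2, Id3, Smad6 and Gadd45b (4.22% of all genes), 3 fell with control virus, Id2, Smad6 and Gadd45b (3.37%), and 0 with ACREB (0.245%). Smad6 was then at -0.45 and Gadd45b at -0.57 over both viruses (edgeR quasi-likelihood, adjusted p = 0.00111 and 0.00327). Id1, Id2 and Id3 were at -0.19, -0.26 and -0.19 (adjusted p = 0.0299, 0.00799 and 0.0300, edgeR quasi-likelihood). For ACREB over control virus, 4 of 10 passed over both treatments (9.97% of all genes), with Id1 at -0.19, Id2 at -0.20 and Id3 at -0.28 lower and Skil at 0.21 higher. Only Id3 passed with PBS (1.87% of all genes) and only Id3 with VIP (3.5%), and 0 in the interaction (0%). With the offset but no block, 0 of 10 passed in all 7 contrasts.

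**Figure D4:**
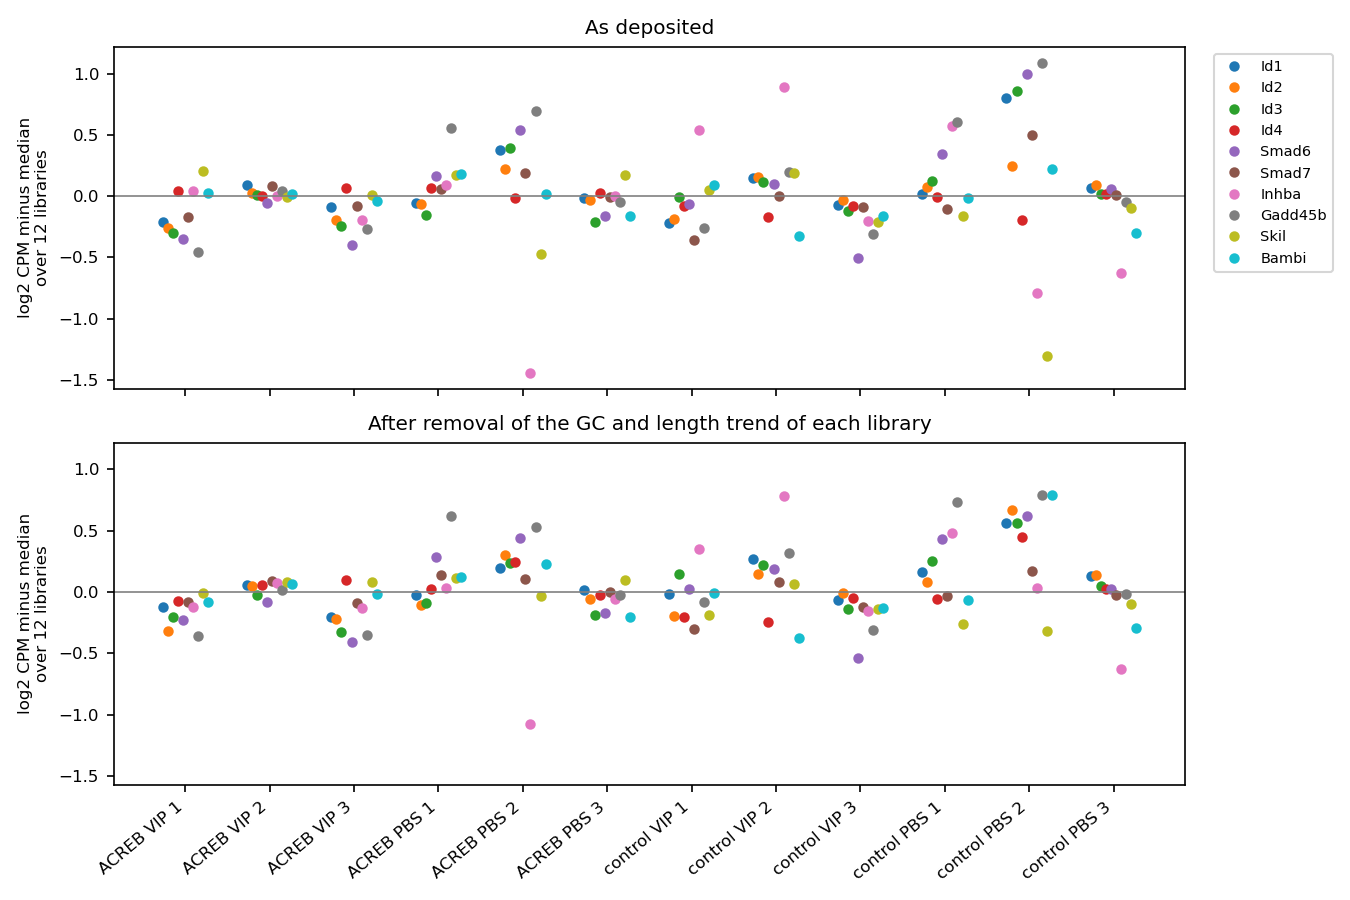
Log2 CPM of each gene minus its median over the 12 libraries (vertical axes), by library (horizontal axis), with the trend left in (above) and with each library's trend on GC content and length taken out (below). Control PBS library 2 spreads from -1.30 for Skil to 1.09 for Gadd45b above, and from -0.32 to 0.79 below.

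Across the libraries the members fell into sets that varied together, which is given as a description because libraries share their GC trend. Over 12 libraries, Pearson's r of log2(CPM + 2) was 0.94 between Id1 and Id3 and 0.94 between Smad6 and Gadd45b. Without control PBS library 2 these were 0.82 and 0.91 over 11 libraries. Id1 and Id2 were at 0.85, and at 0.92 without that library. Skil ran against Id3 at -0.90, and at -0.69 without it.

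Among the 12487 other genes with a mean of at least 2 CPM, the gene most like Smad6 was Plxna1 (r of 0.976 over 12 libraries, 0.955 over 11), a semaphorin receptor gene, followed by Plekhg2 and Itpk1. Gadd45b was most like Arsi (0.954 and 0.925), Plxna1 (0.949 and 0.935) and Smad6 itself (0.943 and 0.910). Among the genes most like Id1 were Map2k1 (0.984 and 0.951) and Prex1 (0.980 and 0.940), and Id3 was most like Ndufs3 (0.969 and 0.911), then Psmd8 and Smarcd3. For Id2 the gene was Plpp6 (0.946 and 0.936), then Slc22a3 and Lbh, and for Id4 Frem2 (0.964 and 0.946), then Usp42 and St3gal6. Smad7 was followed by Ctif, Enho and St6galnac4, Skil by Cltc (0.991 and 0.966), Pcmtd1 and Purb, Inhba by Lhfpl3, Fut9 and Opcml, and Bambi by Tmem98, Ephb4 and Pex26. Inhba and Bambi had the loosest likeness, at 0.925 and 0.910 for their first genes. These names depended on control PBS library 2. Over the 11 other libraries, 0 of the 3 genes named for Smad7, for Inhba and for Bambi were among the 3 most like them, with Enho at rank 15 for Smad7, Fut9 at 69 for Inhba and Pex26 at 11 for Bambi. For the other members 1 or 2 of the 3 were.

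The rest of the pathway was covered by 92 further genes in 10 lists, of which 86 were tested. After VIP, over both viruses, 1 of the 86 passed the edgeR quasi-likelihood test, Smad9 (0.728% of all genes passed), and 5 passed with the block (2.25%). Smad9, a BMP-activated Smad also called Smad8, had 50.5, 51.2 and 47.8 CPM in ACREB VIP cultures, against 62.4, 65.3 and 61.9 CPM in ACREB PBS cultures. In control-virus cultures Smad9 had 44.6, 49.9 and 40.4 CPM with VIP, against 63.4, 61.1 and 54.5 CPM with PBS. The VIP and PBS ranges did not overlap in either virus, but Smad9 is named for passing a test on these same values. Smad9 fell by 0.38 on the log2 scale over both viruses (SE 0.075; edgeR quasi-likelihood, adjusted p = 0.0461, and 0.00958 with the block). Without the block this call was kept in 3 of 12 fits with 1 library left out, and with it in 11 of 12. It was lost without a filter on low counts (edgeR quasi-likelihood, adjusted p = 0.115).

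Of the other genes called with the block over both viruses, Olig2, a bHLH factor of the oligodendrocyte lineage and an Id partner, fell by 0.56, and Tgfb3, a TGF-beta ligand, fell by 0.39 (edgeR quasi-likelihood with the block, adjusted p = 0.00348 and 0.0279). Ccn2, the connective tissue growth factor gene and a TGF-beta target, fell by 0.41, and Bmper, a secreted BMP-binding protein, rose by 0.41 (adjusted p = 0.0328 and 0.0272 in the same fit). Olig2 had 129, 160.0 and 152 CPM in ACREB VIP cultures, against 171, 207 and 171 CPM in ACREB PBS cultures. With control virus it had 112, 149.9 and 118 CPM with VIP, against 196, 298 and 180.3 CPM with PBS, so that the groups did not overlap in either virus. Bmper had 22.0, 19.0 and 21.9 CPM in ACREB VIP cultures, against 16.3, 16.6 and 16.6 CPM in ACREB PBS cultures. With control virus Bmper had 23.3, 18.7 and 22.6 CPM with VIP, against 14.0, 16.4 and 15.6 CPM with PBS. In each virus every VIP library of Bmper lay above every PBS library. Olig2 and Bmper are named for passing a test on these same values, so their separation is no further support. With 1 library left out of the blocked fit, the Olig2 call was kept in 12 of 12 fits, that of Tgfb3 in 4, of Ccn2 in 3 and of Bmper in 3. The highest adjusted p in those fits was 0.132 for Tgfb3, 0.145 for Ccn2 and 0.122 for Bmper (edgeR quasi-likelihood). DESeq2 without a block also called Olig2 and Bmper (adjusted p = 0.00732 and 0.00102). Tgfb3 overlaps Gm37804 and Gm48008 on the opposite strand, so its counts are uncertain.

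Within the control virus, 4 of the 86 fell with the block (1.63% of all genes passed), Olig2 by 0.81, Ccn2 by 0.66, Tgfb3 by 0.54 and Smad9 by 0.41, and within ACREB none passed. None of the 10 tested BMP ligands, 12 receptors, 9 other intracellular inhibitors, 7 other BMP target genes or 3 other Gadd45 genes passed in either fit over both viruses. Their median log2 fold changes were -0.081, 0.12, -0.086, -0.24 and -0.16. With the block, 1 of 8 TGF-beta and activin ligands, 1 of 6 signal-carrying Smads, 1 of 12 secreted antagonists, 1 of 12 other TGF-beta targets and 1 of 7 bHLH partners passed, the genes named above. By level, the BMP ligands were led by Bmp6 at 59.7 RPKM and Gdf11 at 17.7, and the receptors by Bmpr1a at 65.9 and Tgfbr1 at 16.0. The secreted antagonists were led by Fstl1 at 119 RPKM and Nbl1 at 113, the other Gadd45 genes by Gadd45g at 52.5 and Gadd45a at 12.9, and the bHLH partners by Olig1 at 287 and Olig2 at 67.3. Bmp6 overlaps Txndc5 and Olig1 overlaps Gm15966 on the opposite strand, so these levels are uncertain.

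**Figure D5:**
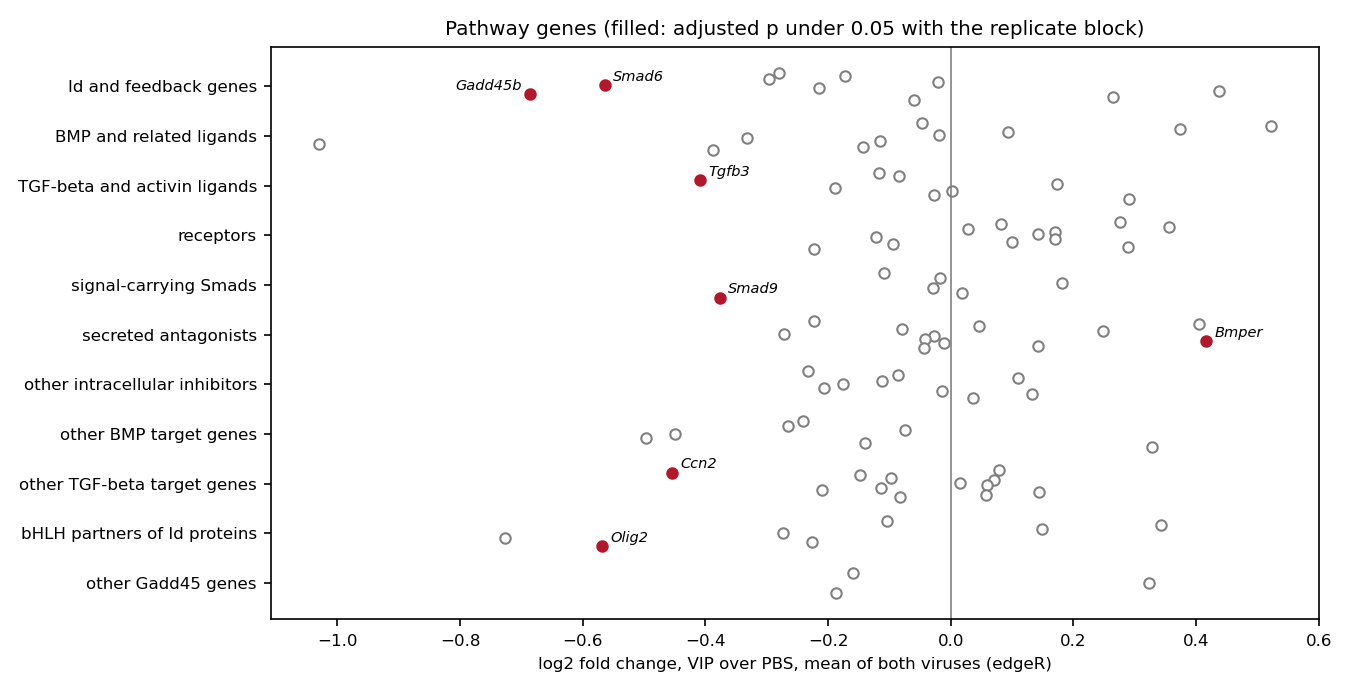
Log2 fold change of VIP over PBS over the mean of both viruses from edgeR without the block (horizontal axis) for the 10 members (top row) and the 86 tested pathway genes, by list. Filled points passed an adjusted p of 0.05 with the replicate block: of the members Gadd45b and Smad6, and of the others Tgfb3, Smad9, Bmper, Ccn2 and Olig2.

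Between viruses, over both treatments, 0 of the 86 passed without the block and 7 with it (0.674% and 3.45% of all genes). Among those lower with ACREB in the blocked fit were Tgfb3 by 0.43, the latent TGF-beta binding protein gene Ltbp3 by 0.32, the BMP antagonist Grem1 by 1.01, and the TGF-beta target Col1a1 by 0.56. Higher were the antagonist Sostdc1, at 0.58, and the matrix gene Fn1, from the same TGF-beta target list as Col1a1, at 0.42. The adjusted p was 0.0168 for Tgfb3, 0.0348 for Ltbp3, 0.0491 for Grem1, 0.0248 for Col1a1, 0.0100 for Sostdc1 and 0.0200 for Fn1 (edgeR quasi-likelihood with the block). With 1 library left out of that fit, the Sostdc1 call was kept in 12 of 12 fits, that of Tgfb3 in 8, Fn1 in 6, Col1a1 in 5, Ltbp3 in 4 and Grem1 in 0. Grem1 had only 3 to 31 counts per library, and its adjusted p in those fits was 0.0622 to 0.164. Fn1 overlaps Apol7d on the opposite strand and is uncertain. Of the fibroblast and mural markers, 2 of 10, Col1a1 and Col1a2, fell with ACREB in the same fit. Those markers summed to 3566 to 4921 CPM in ACREB VIP and 3315 to 4110 CPM in control VIP cultures, and to 3733 to 5582 CPM in ACREB PBS and 3595 to 5788 CPM in control PBS cultures. Their part in these values was not tested. In the interaction 0 of the 86 passed.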

How the data were processed

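Strand-specific libraries of polyadenylated RNA were read as 12 columns of raw counts, which the authors deposited per Ensembl gene with no normalization. Trimmomatic 0.39, STAR 2.7.1a and HTSeq 0.11.2, then R 3.6.1 with edgeR, are listed in the submitters' processing notes, along with the build GRCm38 (mm10). Neither the annotation release nor the strand setting of the counter is given in the sources used here. Gene symbols, positions, exon lengths and GC content were taken from GENCODE for GRCm38.

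Counts were fitted with edgeR 4.0.16 in R 4.3.3 (TMM, filterByExpr, quasi-likelihood test, 1 mean per group, 8 residual degrees of freedom). P-values were adjusted by Benjamini-Hochberg over 16761 genes and called at 0.05. DESeq2 1.42.0 was an alternative. CPM used TMM-adjusted library sizes, and 2 was added before taking log2.

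The labels number libraries 1 to 3 in each group. Same-numbered libraries deviated together from their group means on edgeR's log CPM, with r from 0.132 to 0.679 over 18 pairs, all over 0.1, and each of the 12 libraries was most like one of its own number. On log2(CPM + 2), 17 of 18 were over 0.1 and the lowest was 0.0864. By the first measure the numbers were taken to pair the samples, and values with the replicate block (6 residual degrees of freedom) are given where they change a call. The GC and length trend was a spline of 5 degrees of freedom per library. Other alternatives were normalization, filter, the groups fitted and left-out libraries. Blocked fits without 1 library, and the fit without libraries numbered 2, were chosen after seeing the data.

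Members and lists were chosen with earlier results of these data known. By rule the text names the members, list genes that passed without the block, the 2 highest by RPKM of some lists, and the 3 genes most like each member, except that some genes are not reported here. List genes that passed with the block alone are also named, outside that rule and after their values were seen. Promoter sequences are from RefSeq (GRCm38.p6).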

Additional observations from a re-analysis of the deposited data

How the results depend on the processing

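No member passed in any of the 7 contrasts under another normalization, DESeq2, no filter on low counts, fits of the compared groups alone, GC and length offsets without a block, or with all libraries numbered 2 left out. The replicate block was the choice that made calls. With it, 1 member passed for VIP over PBS in control virus and 2 over both viruses. With GC and length offsets and the replicate block together, 3 passed for VIP over PBS in control virus, 5 over both viruses, 1 for ACREB over control virus with PBS, 1 with VIP and 4 over both treatments. Leaving out 1 library, with or without the block, gave 0 to 2 members called for VIP over PBS in control virus and 0 to 3 over both viruses. The cause of these shifts was not tested. Over the values of the 10 members in all alternatives, 2055 kept direction and side of the threshold, 43 passed where they had not, and 112 changed sign, all of them of values that had not passed. Inhba was the shallowest member, with 25 to 157 counts per library.

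Changes of sign, on the log2 scale, were as follows. With GC and length offsets, VIP over PBS in ACREB virus was -0.058 for Id4 and -0.011 for Skil. ACREB over control virus with PBS was -0.068 for Id4, 0.042 for Smad7 and -0.16 for Bambi, and the interaction was 0.12 for Id2 and -0.073 for Gadd45b. With the offsets and the replicate block, the same 7 values were -0.055, -0.013, -0.060, 0.046, -0.12, 0.11 and -0.069. Without all libraries numbered 2, VIP over PBS was 0.12 for Bambi in control virus. In ACREB virus it was -0.0066 for Id4, -0.13 for Inhba and -0.074 for Skil, and over both viruses -0.0075 for Inhba, -0.013 for Skil and 0.042 for Bambi. In that fit ACREB over control virus with PBS was 0.075 for Smad7, and the interaction was 0.0048 for Id2, -0.059 for Gadd45b and -0.16 for Bambi.

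With 1 library left out, with or without the replicate block, these values crossed 0. VIP over PBS in control virus ran from -0.23 to 0.059 for Bambi. In ACREB virus it ran from -0.32 to 0.0095 for Id3, -0.013 to 0.033 for Id4, -0.13 to 0.71 for Inhba, -0.10 to 0.21 for Skil and -0.10 to 0.071 for Bambi. Over both viruses it ran from -0.055 to 0.0018 for Id4 and -0.12 to 0.022 for Bambi. ACREB over control virus with PBS ran from -0.38 to 0.080 for Id1, -0.51 to 0.0032 for Smad6, -0.20 to 0.13 for Smad7, -0.53 to 0.41 for Inhba, -0.43 to 0.13 for Gadd45b and -0.092 to 0.20 for Bambi. With VIP it ran from -0.11 to 0.077 for Id1, -0.28 to 0.0033 for Smad6, -0.0096 to 0.17 for Smad7, -0.80 to 0.0037 for Inhba, -0.29 to 0.070 for Gadd45b, -0.17 to 0.37 for Skil and -0.012 to 0.24 for Bambi. Over both treatments it ran from -0.20 to 0.028 for Id1, -0.053 to 0.11 for Smad7 and -0.27 to 0.010 for Gadd45b. The interaction ran from -0.10 to 0.35 for Id1, -0.12 to 0.068 for Id2, -0.13 to 0.40 for Id3, -0.13 to 0.38 for Smad6, -0.038 to 0.29 for Smad7, -0.94 to 0.14 for Inhba, -0.24 to 0.32 for Gadd45b and -0.074 to 0.21 for Bambi.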
